A study of Homo sapiens with 16 samples.

Results

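The E2F and DP transcription factors were examined in 2 human breast cancer cell lines grown in low or high glucose. The members were chosen by name, E2F1 to E2F8 with the dimer partners TFDP1 and TFDP2, which gave 10 genes of the 18332 in the table, and all 10 passed the filter on low values. MDA-MB-231 and MDA-MB-468, both established lines that lack the estrogen receptor per the labels, were cultured for 48 hours in medium with 5 mM glucose, the control, or 25 mM glucose, the model of hyperglycemia. Each of the 4 groups held 4 replicates, 16 RNA sequencing libraries in all. Per the methods of the study, the cells were first conditioned in low glucose and the treatment medium held no serum, in control and treated cultures alike. MDA-MB-231 cells were maintained in DMEM and MDA-MB-468 cells in RPMI, so that the line and its usual medium cannot be told apart, and no group with another sugar as an osmotic control is among these samples. Nothing in the sources says whether the replicates were separate cultures, so the p-values measure the spread between these libraries.

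E2F proteins bind DNA as dimers with a DP partner, and they set when a dividing cell makes its DNA replication genes. E2F1, E2F2 and E2F3 activate transcription once the retinoblastoma protein RB1 is phosphorylated by cyclin-dependent kinases and lets them go, whereas E2F4 and E2F5 repress with the RB relatives p107 (RBL1) and p130 (RBL2) in resting cells. E2F6 represses with Polycomb proteins, and the atypical members E2F7 and E2F8 bind DNA without a DP partner and repress E2F targets late in S phase. Several E2F genes carry E2F sites in their own promoters, and loss of RB1 is a recurrent lesion of breast cancers that lack the estrogen receptor.

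High glucose was accompanied by opposite changes of the same members in the 2 lines. In MDA-MB-231, E2F1, E2F2, E2F8 and TFDP1 fell and no member rose. In MDA-MB-468 those 4 genes rose, together with TFDP2, and no member fell. Over all genes tested, 15.1% were called in the first line and 47.6% in the second, and 3.0% were called lower in the first and higher in the second. E2F3, E2F4, E2F5, E2F6 and E2F7 passed the test in neither line. The lines also held different family members at baseline, since in low glucose E2F7 in MDA-MB-468 was at 0.0347 times its MDA-MB-231 level and E2F2 was 11.6-fold higher.

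The promoters of 3 of the 4 genes with opposite calls are shown. As background, several E2F genes are themselves E2F targets, and whether that has a part in these changes was not tested. The sequences come from RefSeq on GRCh38.p14 and span 250 bases before to 50 bases after the annotated start, written 5′ to 3′ along the gene. Capitals mark matches on either strand to any of 8 E2F words, TTTCCCGC, TTTCCCGG, TTTCGCGC, TTTCGCGG, TTTGCCGC, TTTGCCGG, TTTGGCGC and TTTGGCGG. The windows lie at chr20:33686336-33686635 on the minus strand for E2F1, at chr1:23531184-23531483 on the minus strand for E2F2 and at chr13:113584503-113584802 on the plus strand for TFDP1. E2F8 is named only.
E2F1: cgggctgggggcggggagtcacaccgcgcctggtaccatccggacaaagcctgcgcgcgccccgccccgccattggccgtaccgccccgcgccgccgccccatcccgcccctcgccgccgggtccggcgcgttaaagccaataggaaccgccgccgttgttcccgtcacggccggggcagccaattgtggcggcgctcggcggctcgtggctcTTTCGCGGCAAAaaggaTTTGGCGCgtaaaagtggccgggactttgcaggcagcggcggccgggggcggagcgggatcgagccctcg
E2F2: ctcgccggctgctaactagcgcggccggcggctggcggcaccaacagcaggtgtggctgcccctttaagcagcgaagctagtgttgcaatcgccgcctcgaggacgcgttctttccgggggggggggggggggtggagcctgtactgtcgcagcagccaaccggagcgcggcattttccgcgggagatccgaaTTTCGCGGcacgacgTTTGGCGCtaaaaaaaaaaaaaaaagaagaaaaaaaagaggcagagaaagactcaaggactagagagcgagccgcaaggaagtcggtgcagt
TFDP1: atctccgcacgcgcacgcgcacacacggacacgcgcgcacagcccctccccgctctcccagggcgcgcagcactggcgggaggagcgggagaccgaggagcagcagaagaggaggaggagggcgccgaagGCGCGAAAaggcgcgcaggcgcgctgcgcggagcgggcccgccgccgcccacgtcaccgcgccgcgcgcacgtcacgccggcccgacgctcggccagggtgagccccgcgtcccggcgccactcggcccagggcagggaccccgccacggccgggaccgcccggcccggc

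The E2F1 window held 3 matches, which began 37, 33 and 20 bases upstream of the start, and the first and the second of them overlap on opposite strands. The E2F2 window held 2 matches, at 57 and 42 bases upstream, and the TFDP1 window held 1 match at 120 bases upstream, read on the opposite strand. The E2F1 and E2F2 windows shared the words TTTCGCGG and TTTGGCGC in the same order. At least 1 of the 8 words occurred in 6.19% of all 35116 promoter windows of that length. Counted by gene, 7.43% of all 27305 genes with an entry held a word in at least 1 of their windows. Of the 8 members with an entry, 6 did, which were E2F1, E2F2, E2F3, E2F6, TFDP1 and TFDP2, and neither E2F4 nor E2F7 did. Of these 6, E2F3 and E2F6 passed the test for glucose in neither line. TFDP2, which rose in MDA-MB-468 and was not called in MDA-MB-231, held its single match 19 bases into the transcript of 1 of its 3 annotated starts. E2F7 held no such word but 4 copies of CCAAT, the box bound by NF-Y, letters present in 34.6% of all windows. A match is a description of the letters in these windows, and words rich in G and C are commoner where GC content is high. That content was 73.3% in the E2F1 window, 59.7% in that of E2F2 and 79.7% in that of TFDP1, against a median of 58.7% over all windows.

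E2F1, the activator best known for driving entry into S phase, fell in MDA-MB-231 and rose in MDA-MB-468. The gene lies at chr20:32263283-32274191 on the minus strand of GRCh37, the build used for gene positions here. In MDA-MB-231 its normalized read counts, the deposited unit, were 800.3, 798, 895 and 788 in the low-glucose replicates and 554, 530.1, 529 and 568 in high glucose. Every high-glucose library lay below every low-glucose library. The log2 fold change, high minus low glucose, was -0.59 (SE 0.052, adjusted p = 5.45e-07, limma), and the level fell by 33.4%. In a bulk culture, fewer cells that express a gene and less of its RNA per cell cannot be told apart.

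In MDA-MB-468, E2F1 stood at 990.1, 978, 935 and 960.2 normalized reads in low glucose and at 1037, 1124, 1172 and 1199 in high glucose. The groups again did not overlap, in the other direction. The log2 fold change was 0.23 (SE 0.046, adjusted p = 0.000673), an increase of 17.2%. In low glucose the 2 lines were close for this gene, with a log2 difference of 0.24 in favor of MDA-MB-468 (95% interval 0.13 to 0.34, adjusted p = 0.000225).

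E2F2, the second activator, showed the same directions on a very different baseline. It lies at chr1:23832930-23857725 on the minus strand of GRCh37. In MDA-MB-231 the counts were 81.5, 93.0, 103 and 107 in low glucose and 58.4, 51.5, 60.4 and 57.1 in high glucose. No high-glucose library reached the lowest low-glucose value, and E2F2 had the lowest level per length of all members in this line. The log2 fold change was -0.74 (SE 0.13, adjusted p = 0.000549), and the level fell by 40.2%, the largest change with glucose among the members.

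In MDA-MB-468, E2F2 was read at 1159, 1139, 1084 and 1099 in low glucose and at 1320.2, 1277, 1343 and 1386 in high glucose. Again the groups were fully separated. The rise was 0.25 on the log2 scale (SE 0.039, adjusted p = 6.84e-05). Between the lines in low glucose, E2F2 was 11.6-fold higher in MDA-MB-468, a log2 difference of 3.54 (95% interval 3.38 to 3.69, adjusted p = 1.16e-17).

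E2F3, the remaining activator, did not pass the test in either line. Its counts in MDA-MB-231 were 1663, 1672, 1689.7 and 1784 in low glucose and 1568, 1609, 1648 and 1589 in high glucose. The groups did not overlap, but the difference was small, at -0.086 on the log2 scale (95% interval -0.16 to -0.0089, adjusted p = 0.132). In MDA-MB-468, where the counts were 1114, 1198, 1165 and 1161 against 1109, 1222, 1226 and 1133, the groups overlapped and the log2 fold change was 0.015 (95% interval -0.076 to 0.11). E2F3 was lower in MDA-MB-468 than in MDA-MB-231 in low glucose by a log2 difference of -0.55 (adjusted p = 1.65e-10). The table gives values per gene, so the isoforms of E2F3 are not separated.

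**Figure D1:**
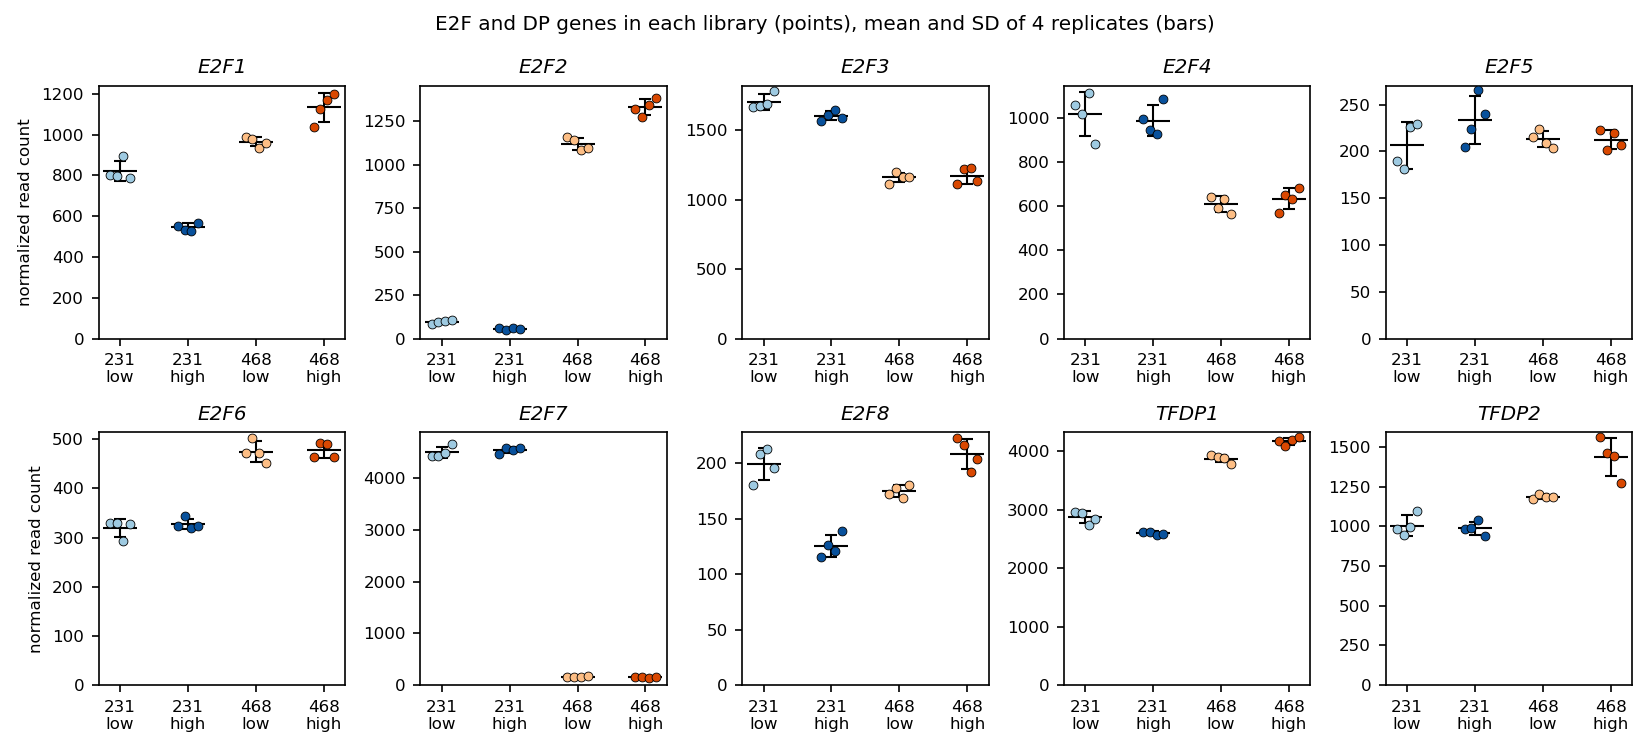
Normalized read count (y axis, from 0) of each of the 10 genes in the 4 groups (x axis), with 1 point per library and bars for the mean and SD of 4 replicates. E2F1, E2F2, E2F8 and TFDP1 sit lower in high than in low glucose in MDA-MB-231 and higher in MDA-MB-468, and E2F7 lies at 4421 to 4657 in MDA-MB-231 in low glucose against 147 to 166 in MDA-MB-468.

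The repressors that pair with p107 and p130 did not move beyond the test in either line. E2F4, the most widely expressed of the repressors, ranged from 882 to 1115 normalized reads in low glucose and from 927 to 1086 in high glucose in MDA-MB-231 (log2 fold change -0.041, 95% interval -0.18 to 0.095). In MDA-MB-468 it ranged from 565 to 642 and from 572 to 683 (0.059, 95% interval -0.067 to 0.19). The glucose groups overlapped in both lines, while E2F4 was lower in MDA-MB-468 in low glucose by -0.74 on the log2 scale (adjusted p = 3.46e-08).

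E2F5, its close relative, ranged from 181 to 229 normalized reads in low glucose and from 204 to 266 in high glucose in MDA-MB-231. This was a log2 fold change of 0.18 with a wide interval, -0.025 to 0.38 (adjusted p = 0.249). In MDA-MB-468 the ranges were 204 to 223 and 201 to 223, with a log2 fold change of -0.0033 (95% interval -0.16 to 0.15). E2F5 was the member for which the lines were not separated, with a log2 difference of 0.052 in low glucose (95% interval -0.13 to 0.24, adjusted p = 0.587). Exons of E2F5 share 991 bases with RBIS on the opposite strand, and since no source says whether the counting used strand, reads of that stretch cannot be assigned to either gene.

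E2F6, the Polycomb-associated repressor, was read at 293 to 329.8 in low and 320.4 to 344 in high glucose in MDA-MB-231, and at 451 to 503 and 464 to 493 in MDA-MB-468. The groups overlapped in both lines, with log2 fold changes of 0.036 (95% interval -0.097 to 0.17) and 0.0096 (95% interval -0.10 to 0.12). E2F6 was higher in MDA-MB-468 in low glucose by 0.57 on the log2 scale (adjusted p = 7.54e-09).

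The atypical repressors differed from each other. E2F7 showed the largest difference between the lines and no detectable response to glucose. It lies at chr12:77415028-77459349 on the minus strand of GRCh37. Its counts in MDA-MB-231 were 4435, 4421, 4491 and 4657 in low glucose and 4467, 4576, 4552 and 4585 in high glucose. In MDA-MB-468 they were 147, 156, 151 and 166 in low glucose and 151, 161, 137 and 159 in high glucose. The lines were separated by more than an order of magnitude in every library, whereas the glucose groups overlapped within each line. The log2 difference between the lines in low glucose was -4.85 (95% interval -4.95 to -4.75, adjusted p = 6.17e-22), so that MDA-MB-468 held 0.0347 times the MDA-MB-231 level. The log2 fold change with glucose was 0.014 in MDA-MB-231 (95% interval -0.047 to 0.076) and -0.031 in MDA-MB-468 (95% interval -0.22 to 0.15).

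E2F8, at chr11:19245610-19263167 on the minus strand of GRCh37, went the way of E2F1 and E2F2 and not that of E2F7. In MDA-MB-231 the counts were 181, 208, 213 and 196 in low glucose and 116, 126, 121 and 139 in high glucose. The groups lay apart, and the log2 fold change was -0.67 (SE 0.090, adjusted p = 5.37e-05), and the level fell by 37.1%. In MDA-MB-468 E2F8 was read at 172, 178, 169 and 181 in low and at 223, 216, 192 and 204 in high glucose. These groups were also separate, and the rise was 0.25 on the log2 scale (SE 0.077, adjusted p = 0.0127). With DESeq2 on the recovered reads the adjusted p of this rise was 0.0535. In low glucose E2F8 was lower in MDA-MB-468 by -0.19 on the log2 scale (adjusted p = 0.0264), a call that was lost without replicate 2 or 3 of MDA-MB-231 or replicate 1 or 3 of MDA-MB-468, with adjusted p from 0.0529 to 0.0815.

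The DP genes code for the partners that E2F1 to E2F6 need to bind DNA. TFDP1, a main partner that lies at chr13:114239036-114295788 on the plus strand of GRCh37, was read in MDA-MB-231 at 2960.3, 2940.5, 2743 and 2841 in low and at 2626, 2620.1, 2562 and 2578 in high glucose. No library of the high-glucose group reached the low-glucose range, although the change was small, at -0.14 on the log2 scale (SE 0.033, adjusted p = 0.00655), and the level fell by 9.52%. In MDA-MB-468 the counts were 3941, 3896, 3878 and 3784 in low and 4184, 4093, 4188 and 4238 in high glucose. Here every high-glucose library was above every low-glucose library, by 0.11 on the log2 scale (SE 0.028, adjusted p = 0.00448), and this rise was 0.059 with an adjusted p of 0.0634 after quantile normalization. TFDP1 was higher in MDA-MB-468 in low glucose by 0.43 on the log2 scale (adjusted p = 2.20e-11).

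TFDP2, the second DP gene, which lies at chr3:141663270-141868386 on the minus strand of GRCh37, rose in MDA-MB-468. The counts there were 1174, 1206, 1186 and 1186 in low and 1560.3, 1459, 1446 and 1272 in high glucose. The low-glucose replicates were tightly grouped, and the high-glucose replicates were spread but all above them. The log2 fold change was 0.27 (SE 0.050, adjusted p = 0.000333). In MDA-MB-231 the counts of 984, 942, 996 and 1098 in low and 985, 989.8, 1037 and 939.7 in high glucose overlapped, with a log2 fold change of -0.023 (95% interval -0.13 to 0.081). Its low-glucose level was higher in MDA-MB-468 by 0.24 on the log2 scale (adjusted p = 0.000528).

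By count, 4 of the 10 genes fell and 0 rose in MDA-MB-231, where 15.1% of 14884 genes tested were called, 5.71% higher and 9.37% lower in high glucose. At an unadjusted p under 0.05, 0 members were higher and 5 lower, and edgeR and DESeq2 both called the same number, 4 lower and 0 higher. After quantile normalization the calls over all genes were split into 1027 higher and 1114 lower, against 850 and 1395 in the deposited scaling. In MDA-MB-468, 5 of 10 rose and 0 fell, where 47.6% of 15757 genes were called, 24.9% higher and 22.7% lower, so a call there is common. At an unadjusted p under 0.05, 5 were higher and 0 lower, while edgeR called 5 higher and 0 lower and DESeq2 4 higher and 0 lower. The glucose groups did not overlap for 5 members in each line, against 18.7% of all genes in the former and 42.5% in the latter. In MDA-MB-468 the 5 of 10 called and the 5 of 10 without overlap both lie near these shares of all genes. The 10 members had a median log2 fold change of -0.063 (MDA-MB-231) or 0.084 (MDA-MB-468), beside 0.0017 and 0.00011 over all genes tested.

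A call lower in MDA-MB-231 and higher in MDA-MB-468 was made for 4 members, E2F1, E2F2, E2F8 and TFDP1. Over all 13573 genes tested in both lines, 407 genes, or 3.0%, had this pair of calls. These 4 genes were all of those that fell in MDA-MB-231 and all but TFDP2 of the 5 that rose in MDA-MB-468. The glucose comparisons of the 2 lines share no libraries.

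The difference of the responses was tested directly as an interaction, the log2 fold change in MDA-MB-468 minus that in MDA-MB-231. It passed the threshold for 5 members, all in the positive direction, where 30.9% of 17115 genes passed, 17.0% positive and 13.9% negative. The largest was that of E2F2, 0.99 (95% interval 0.77 to 1.21, adjusted p = 1.77e-06). E2F8 followed with 0.92 (95% interval 0.70 to 1.14, adjusted p = 4.49e-06) and E2F1 with 0.82 (95% interval 0.67 to 0.96, adjusted p = 1.73e-07). The DP genes differed less, TFDP2 by 0.29 (95% interval 0.13 to 0.45, adjusted p = 0.00809) and TFDP1 by 0.25 (95% interval 0.18 to 0.33, adjusted p = 3.75e-05). For E2F3 to E2F7 the estimates lay between -0.18 and 0.10, and the widest interval was that of E2F5, -0.44 to 0.081. Between the lines in low glucose, 9 of 10 members were called, 5 higher and 4 lower in MDA-MB-468, where 85.4% of all genes were called, 45.0% higher and 40.4% lower.

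**Figure D2:**
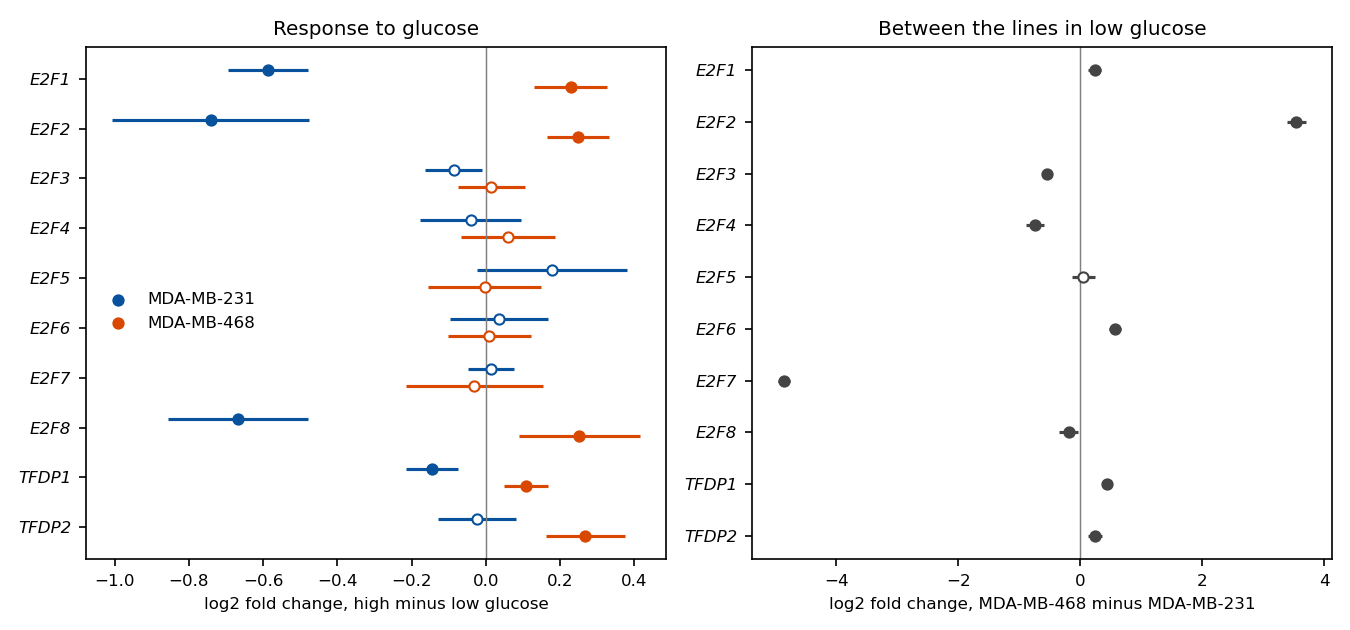
Left, log2 fold change with glucose (x axis) of each gene (y axis), with MDA-MB-231 in blue and MDA-MB-468 in orange. Right, log2 difference between the lines in low glucose. Points are limma estimates, lines their 95% intervals, and filled points have an adjusted p under 0.05. E2F1, E2F2, E2F8 and TFDP1 are filled on opposite sides of 0 in the left panel, and E2F7 at -4.85 and E2F2 at 3.54 are the extremes of the right panel.

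Levels were compared between members only per length, as TPM, computed from the recovered reads divided by the canonical transcript length and scaled to the library. In MDA-MB-231 in low glucose the order by mean TPM was TFDP1 (153), E2F7 (111), E2F4 (67.9), E2F3 (47.5), E2F1 (42.9), E2F5 (14.8), TFDP2 (14.3), E2F6 (13.9), E2F8 (7.58) and E2F2 (2.60). The replicate ranges of E2F3 and E2F1 overlapped, as did those of E2F5 with TFDP2 and of TFDP2 with E2F6, so these neighbors were not separated. The replicate ranges of the other neighbors lay apart.

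In MDA-MB-468 in low glucose the order by mean TPM was TFDP1 (218), E2F1 (53.2), E2F4 (42.8), E2F3 (34.1), E2F2 (32.0), E2F6 (21.8), TFDP2 (17.8), E2F5 (16.1), E2F8 (7.0) and E2F7 (4.02). Of these neighbors, E2F3 and E2F2 overlapped. E2F2 thus stood last of the 10 in MDA-MB-231 and in the middle in MDA-MB-468, while E2F7 went from the second place to the last. TFDP1 was first in all 4 groups, and after high glucose its mean level per length was 139 TPM in MDA-MB-231 and 223 TPM in MDA-MB-468.

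The makeup of the family differed accordingly. The activators E2F1 to E2F3 made up 30.2% ± 0.46 (SD, n = 4) of the summed TPM of the 8 E2F genes in MDA-MB-231 in low glucose and 56.6% ± 0.78 in MDA-MB-468. After high glucose the former share was 26.0% ± 0.38 and the latter 58.7% ± 0.57. E2F7 and E2F8 together held 38.4% ± 1.15 in MDA-MB-231 in low glucose, against 5.23% ± 0.26 in MDA-MB-468. E2F7 alone accounted for 35.9% in the former and 1.91% in the latter. The summed level per length of the E2F genes in low glucose was 308 TPM for MDA-MB-231 cells and 211 TPM for MDA-MB-468 cells, beside 167 and 235 TPM for the DP genes. These shares describe RNA per length, not protein.

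**Figure D3:**
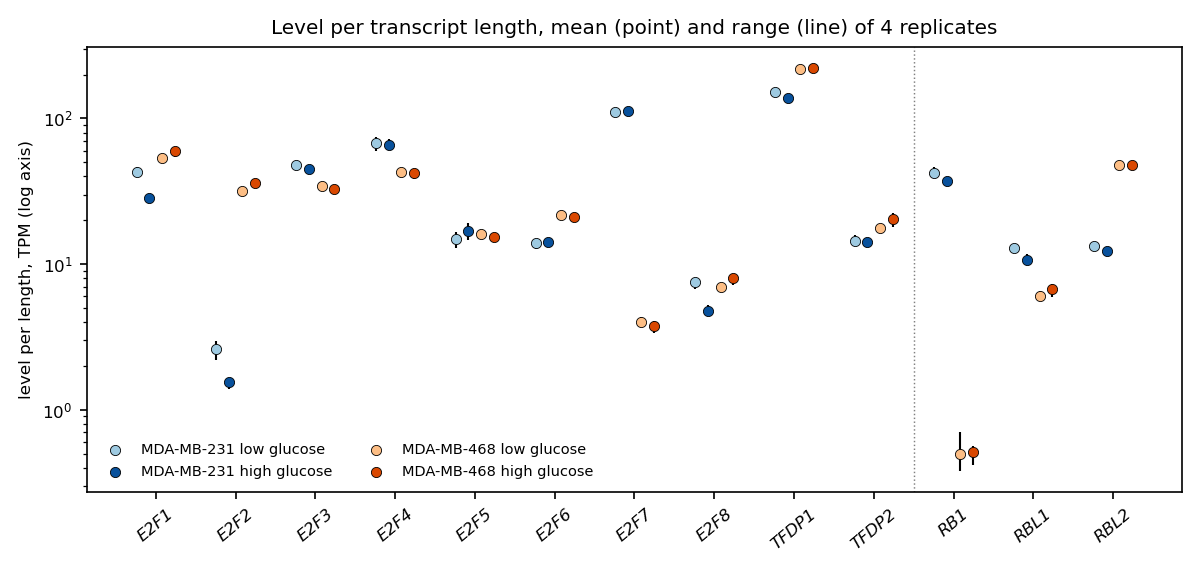
Level per transcript length in TPM (y axis, log scale) of the 10 genes and the 3 RB family genes (x axis) in the 4 groups, with points for the mean and lines for the range of 4 replicates. E2F2 is the lowest of the 10 in MDA-MB-231 and E2F7 the lowest in MDA-MB-468, and RB1 lies at 0.50 TPM in MDA-MB-468 against 41.9 TPM in MDA-MB-231 in low glucose.

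The RB family, the pocket proteins that hold E2F factors in check, was measured beside them. RB1 was at 1358 to 1540 normalized reads in MDA-MB-231 in low glucose and at 12.2 to 22.5 in MDA-MB-468, a log2 difference of -6.43 (adjusted p = 1.32e-17). With high glucose RB1 fell in MDA-MB-231 to between 1199 and 1296, by 0.17 on the log2 scale (adjusted p = 0.0140), and in MDA-MB-468 it was at 14.3 to 18.6. RBL1, which codes for p107, fell by 0.27 in MDA-MB-231 (adjusted p = 0.00450) and rose by 0.22 in MDA-MB-468 (adjusted p = 0.0207, with overlapping groups), the directions seen for E2F1. RBL2, which codes for p130 and is named here after its values were seen, was at 444 to 472 normalized reads in MDA-MB-231 and 1519.9 to 1622 in MDA-MB-468 in low glucose and passed the test in neither line.

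Established E2F targets were taken as a list of 33 genes of the G1/S transition, DNA replication and nucleotide synthesis, of which 32 were found and tested. In MDA-MB-231, 28 of 32 fell and 0 rose, where 9.37% of all genes were called lower, with a median log2 fold change of -0.38, beside 0.0017 over all genes. At an unadjusted p under 0.05, 30 were lower and 0 higher, and edgeR and DESeq2 each called 28 lower and 0 higher. CCNE2, a cyclin that activates CDK2 at the start of S phase, fell most, by 0.78 on the log2 scale (adjusted p = 8.71e-06), from 300.4 to 323 normalized reads in low glucose to 156 to 203 in high glucose. In MDA-MB-468 the list was divided, with 10 genes higher, 9 lower and a median of -0.0059, where 47.6% of all genes were called (24.9% higher, 22.7% lower), while E2F1 and E2F2 rose. MCM5, a subunit of the replicative helicase, rose by 0.49 (adjusted p = 5.91e-08), and HELLS, a chromatin remodeler, fell by 0.45 (adjusted p = 0.000595). The interaction was positive for 23 of the 32 and negative for 0, where 17.0% of all genes were positive and 13.9% negative, with 27 positive and 0 negative at an unadjusted p under 0.05 and 23 positive and 0 negative by edgeR and by DESeq2.

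Genes of the G2 and M phases, which the DREAM complex of E2F4, a DP partner, p130 and MuvB represses in resting cells, were a list of 16. All 16 fell in MDA-MB-231 (median log2 fold change -0.46), beside 9.37% of all genes, also by edgeR and by DESeq2. MKI67, the proliferation marker Ki-67, fell most, from 6878 to 7323 normalized reads in low glucose to 4439 to 4743 in high glucose, or by 0.62 on the log2 scale (adjusted p = 1.12e-09). In MDA-MB-468, 6 were higher and 2 lower (median 0.048), again beside 24.9% and 22.7% of all genes. BIRC5, which codes for survivin, rose by 0.83 (adjusted p = 7.89e-10), whereas the mitotic motor gene CENPE fell by 0.29 (adjusted p = 0.000920) and MKI67 fell by 0.18 (adjusted p = 0.00179) with overlapping groups. MKI67 was thus 1 of 2 genes of the 16 called in the same direction in both lines. Another 6 of the 16 were called lower in MDA-MB-231 and higher in MDA-MB-468, as E2F1, E2F2 and E2F8 were. That pair of calls was also made for 9 of the 32 G1/S genes tested, and for 3.0% of all genes tested in both lines. The interaction was positive for 15 of the 16 G2/M genes and negative for 0, where 17.0% of all genes were positive and 13.9% negative. Whether a different share of cycling cells has a part in the changes of the E2F genes was not tested.

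**Figure D4:**
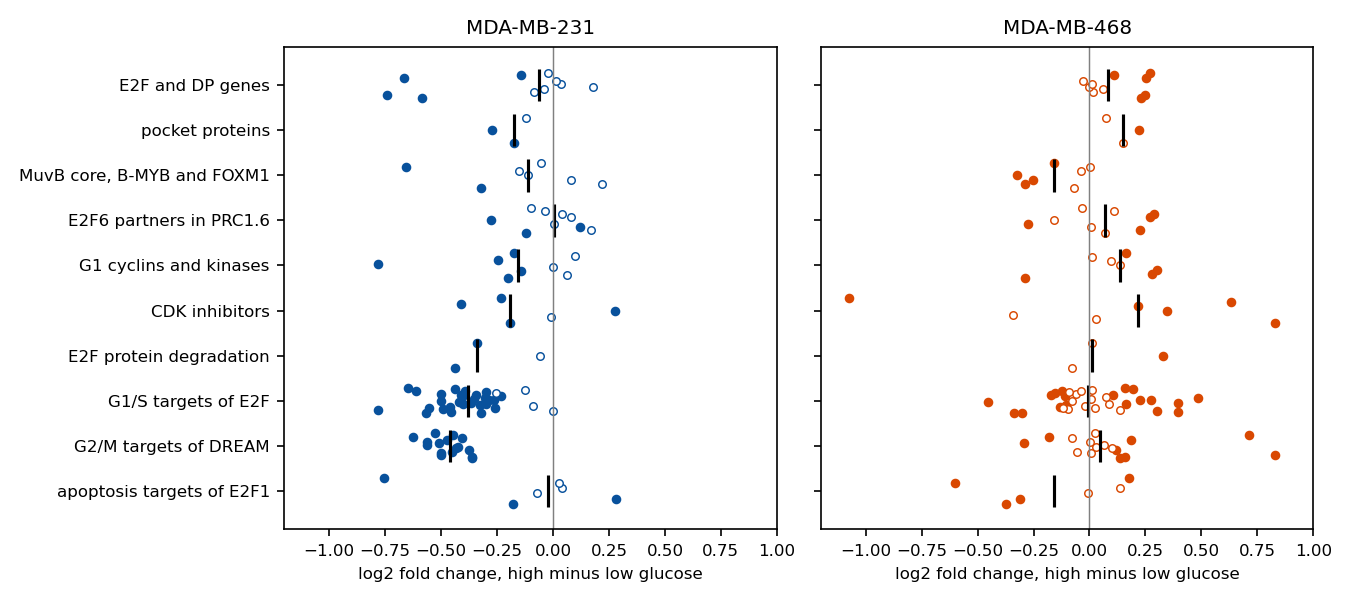
Log2 fold change with glucose (x axis) of the genes of each list (y axis) in MDA-MB-231 (left) and MDA-MB-468 (right), with 1 point per gene tested, filled where the adjusted p is under 0.05, and a black line for the list's median. In MDA-MB-231 the G1/S and G2/M lists lie left of 0, with medians of -0.38 and -0.46, and in MDA-MB-468 their medians are -0.0059 and 0.048.

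The promoter windows of both target lists were searched for the same letters. At least 1 of the 8 E2F words was found in 18 of 27 G1/S genes with an entry (66.7%) and in 2 of 14 G2/M genes (14.3%). TTTGAA, the CHR element read by the DREAM complex, was found in 1 of 27 G1/S genes (3.70%) and in 9 of 14 G2/M genes (64.3%). The sequence CCAAT was found in 21 of 27 (77.8%) and in 12 of 14 (85.7%), and no difference between the lists was tested. The lists were drawn up as targets of E2F and of DREAM, so these shares are not independent of that choice. Over all 27305 genes with an entry, 7.43% held an E2F word, 18.2% held the CHR letters and 39.7% held CCAAT. Both strands were searched, and the median GC content of the windows was 65.8% for the G1/S list, 61% for the G2/M list and 58.7% over all. Among the members, the CHR letters were found in E2F3 and TFDP2.

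Cyclins and kinases that free E2F factors from RB1 were a list of 8, of which CCNE1 and CCNE2 also stand in the G1/S list. In MDA-MB-231, 5 of 8 fell. CCND1, or cyclin D1, fell by 0.20 there (adjusted p = 4.69e-05) and by 0.29 in MDA-MB-468 (adjusted p = 2.45e-05). CCNE1 stood at 94.9 to 111 and 91.3 to 126 normalized reads in low and high glucose in MDA-MB-231, and rose by 0.30 in MDA-MB-468 (adjusted p = 0.00257). CCNE2 did not pass the test in MDA-MB-468 (log2 fold change 0.14, adjusted p = 0.0934). Of the 7 genes tested in MDA-MB-468, 3 rose and 1 fell, where 47.6% of all genes were called, against 15.1% in MDA-MB-231.

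CDK inhibitors, which keep RB proteins bound to E2F factors, were a list of 7. In MDA-MB-231, 1 rose and 3 fell of 5 tested, where 5.71% of all genes were called higher and 9.37% lower. The other 2, CDKN2A and CDKN2B, had 0 reads in all 8 libraries, which allows up to 3 reads in each. CDKN2C fell by 0.41 (adjusted p = 3.72e-06), CDKN1A, or p21, by 0.19 (adjusted p = 0.000811), and CDKN1C rose by 0.28 (adjusted p = 0.0199). In MDA-MB-468, 4 of 7 rose and 1 fell, where 24.9% of all genes were called higher and 22.7% lower. CDKN1A rose there by 0.83 (adjusted p = 1.97e-08), CDKN2A, which was at 947 to 1315 normalized reads, by 0.35 (adjusted p = 4.04e-06), and CDKN2D fell by 1.08 (adjusted p = 4.64e-09).

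Other lists around the family were also read. Of 3 genes for the degradation of E2F proteins, 2 fell in MDA-MB-231, led by CCNF, the F-box protein cyclin F, at -0.44 (adjusted p = 1.48e-05), and 1, FZR1, rose in MDA-MB-468 by 0.33 (adjusted p = 0.00146). CCNF was at -0.079 in MDA-MB-468 (adjusted p = 0.259). Among 7 genes of the MuvB core with B-MYB and FOXM1, 2 fell in MDA-MB-231, MYBL2 most by 0.66 (adjusted p = 2.67e-08), and 4 fell in MDA-MB-468, LIN54 most by 0.33 (adjusted p = 0.000553), while MYBL2 was at 0.0037 (adjusted p = 0.943). Of all genes, 15.1% were called in MDA-MB-231 and 47.6% in the other line, and the 4 of 7 lies near the latter share.

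Of 9 partners of E2F6 in its Polycomb complex, 1 rose and 2 fell in MDA-MB-231 and 3 rose and 1 fell in MDA-MB-468, beside 15.1% and 47.6% of all genes called in these lines. PCGF6 fell by 0.28 in MDA-MB-231 (adjusted p = 0.0232) and MAX rose by 0.12 (adjusted p = 0.0342), whereas RNF2 rose by 0.29 (adjusted p = 0.00597) and MGA fell by 0.27 (adjusted p = 0.000238) in MDA-MB-468. Of 6 germline genes that E2F6 is known to repress, 3 were found. They were at or below 88.9 normalized reads in every library, and STAG3, a meiotic cohesin gene named after its values were seen, was lower in high-glucose MDA-MB-468 cultures by a log2 difference of -0.38 (adjusted p = 0.0503, not called). Of 6 apoptosis genes that E2F1 can activate, 1 rose and 2 fell in MDA-MB-231 and 1 rose and 3 fell in MDA-MB-468. TP73 fell by 0.75 in MDA-MB-231 (adjusted p = 0.000199) and rose by 0.18 in MDA-MB-468 (adjusted p = 0.0410, with overlapping groups). BBC3, which codes for PUMA, went the other way, up by 0.28 in MDA-MB-231 (adjusted p = 0.0345, with overlapping groups), and in MDA-MB-468 it fell by 0.31 (adjusted p = 0.0156). APAF1, a caspase activator named after its values were seen, fell by 0.18 in MDA-MB-231 (adjusted p = 0.0173) and by 0.37 in MDA-MB-468 (adjusted p = 0.000477). PMAIP1, which codes for NOXA, fell by 0.60 in MDA-MB-468 (adjusted p = 5.75e-05).

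Members were also compared with each other and with all genes after the mean of each line was subtracted, as Pearson r of log2(value + 1) over the 16 libraries. These correlations hold the shared responses to glucose and shared library effects, and are given as descriptions. E2F1 and E2F2 had r = 0.94, E2F1 and E2F8 0.92, E2F2 and E2F8 0.92 and E2F1 and TFDP1 0.83. E2F7 and E2F8 had r = -0.017. Of 12810 candidate genes, those nearest to E2F1 were TYMS (r = 0.97), which makes thymidylate, and IQGAP3 (0.96). Those nearest to E2F2 were KIF2C and MCM6 (0.96 each), to E2F8 ZWINT (0.96) and GALNT2 (0.94), to TFDP1 PGRMC1 (0.94) and CCNA2 (0.93) and to TFDP2 AMMECR1 (0.94) and GNPTAB (0.93). For the other members the highest r lay between 0.80 for E2F5 with FBXO25 and 0.90 for E2F4 with PLEKHA4, with DICER1 nearest to E2F3, THEM4 to E2F6 and SEMA3F-AS1 to E2F7.

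The libraries held 14094597 to 24425916 recovered reads, so that 3 reads correspond to 0.123 to 0.213 CPM. No pair of replicates looked like the same library read again. Their counts differed by 2.02 to 5.20 times the variance expected from sampling noise alone (chi-square per gene). This does not tell whether the replicates came from separate cultures. Of the epithelial markers, KRT8, KRT18 and KRT19 were at 6284 or more normalized reads in every library. EPCAM was at 198 to 244 in MDA-MB-231 and at 5279 or more in MDA-MB-468. CDH1 was at 4.29 to 10.7 in MDA-MB-231 and at 1941 or more in MDA-MB-468. ESR1, the estrogen receptor gene, was at 0 to 2.92 in MDA-MB-231 and 38.2 to 69.7 in MDA-MB-468. Of the markers of blood and endothelial cells found, PTPRC did not exceed 16.4 and CDH5 did not exceed 2.37 normalized reads.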

How the data were processed

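RNA sequencing of 16 cell line libraries was analyzed, with groups and replicate numbers from the labels. Per the study's methods, the authors aligned reads to hg19 with TopHat and counted them per gene, while the labels name hg38. The counting program and its use of strand are not given in the sources used here. The deposited values are a normalized signal, the read counts over a size factor that the authors set for each library. Whole reads were recovered for 100% of values (tolerance 0.01 of a read).

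Genes with at least 0.5 CPM in 2 samples were tested with limma 3.58.1 (R 4.3.3; lmFit, then eBayes with trend) on log2(value + 1), two-sided, with Benjamini-Hochberg adjustment over all genes tested and a threshold of 0.05. Fold changes understate low genes. Each line was fitted alone, and the interaction and the difference between the lines came from a model of 4 group means over 16 samples. The members and lists were chosen with earlier results of these data known. Of each list, the called gene with the largest rise and the largest fall in a line was named, with RB1, CCNE1, CCNE2, MYBL2, CCND1, CDKN2A, CDKN1A, MKI67 and CCNF throughout where measured, and for each member the 2 genes with the highest r.

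Lengths and overlaps are from GENCODE lifted to GRCh37, promoters from RefSeq on GRCh38.p14. edgeR 4.0.16 and DESeq2 1.42.0 on recovered reads, other scalings, filters, pseudocounts, length and GC corrections, a replicate block and leaving out each library were alternatives. The scripts were tested on simulated data.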

Additional observations from a re-analysis of the deposited data

Results flagged for a closer look

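The responses to glucose differed between the lines for 5 genes by the interaction test. The log2 fold change in MDA-MB-468 minus that in MDA-MB-231 was 0.82 for E2F1, 0.99 for E2F2, 0.92 for E2F8, 0.25 for TFDP1 and 0.29 for TFDP2. In E2F1, E2F2, E2F8 and TFDP1 each line's own change passed the threshold, in opposite directions, and in TFDP2 that of MDA-MB-468 did.

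A library stood far from the other 3 of its group in 3 of the 40 combinations of gene and group examined, by its gap to the nearest value over the group's range, above the 95% critical value of Dixon's test for 4 samples. Chance gives about 1 in 20 such groups. E2F1 replicate 3 of MDA-MB-231 in low glucose (895 normalized reads) had a ratio of 0.882, and without it the log2 fold change of E2F1 was -0.54 (adjusted p = 2.00e-06) instead of -0.59. E2F6 had a ratio of 0.951 in MDA-MB-231 in low glucose (replicate 3, 293 normalized reads) and of 0.875 in high glucose (replicate 2, 344 normalized reads).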

How the results depend on the processing

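The counts of called members stayed within 1.5 times under every alternative run. They were 4 in MDA-MB-231 throughout, 4 to 5 in MDA-MB-468, 5 to 6 in the interaction and 8 to 9 between the lines. Leaving out 1 library gave 4 to 4, 5 to 5, 5 to 5 and 8 to 9. Called G1/S targets numbered 25 to 30 (MDA-MB-231) or 15 to 23 (MDA-MB-468), and G2/M targets 16 throughout (MDA-MB-231) or 6 to 11 (MDA-MB-468). Of 990 alternative values for the members, 951 kept direction and side of the threshold, 6 lost a call, 1 gained a call and 32 changed sign, the last all in uncalled values near 0. The size of the rises in MDA-MB-468 varied with the setting. On the log2 scale it was 0.14 to 0.27 for E2F1, 0.18 to 0.28 for E2F2 and 0.22 to 0.29 for E2F8. For TFDP1 it was 0.059 to 0.12 and for TFDP2 0.23 to 0.36.

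The replicate numbers showed no pairing of the samples in MDA-MB-231, and any pairing in MDA-MB-468 was weak, with r from 0.017 to 0.032. Deviations of libraries with the same number had a mean r of -0.029 in MDA-MB-231, where 0 of 4 correlated best with their own number, and 0.026 in MDA-MB-468, where 3 of 4 did. With the replicate block 4, 5, 5 and 9 members were called. With the block and a length correction 6 were called in the interaction, the added gene being E2F3 (0.12, adjusted p = 0.0414).

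Sign changes under other settings were as follows, on the log2 scale. With the length correction, alone or in the replicate block, TFDP2 was 0.036 in MDA-MB-231, E2F6 -0.011 and E2F7 0.012 in MDA-MB-468 and E2F5 -0.094 between the lines. With the GC correction E2F4 was -0.018 in MDA-MB-468 and E2F5 -0.079 between the lines, and with quantile normalization E2F6 was -0.018 in MDA-MB-468 and E2F5 -0.037 between the lines.

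Leaving out each library gave ranges across 0 for the following values. In MDA-MB-231 they were -0.11 to 0.0040 for E2F4, -0.0064 to 0.051 for E2F6 and -0.053 to 0.020 for TFDP2. In MDA-MB-468 they were -0.0067 to 0.041 for E2F3, -0.026 to 0.023 for E2F5, -0.015 to 0.038 for E2F6 and -0.058 to 0.017 for E2F7. In the interaction they were -0.050 to 0.016 for E2F6 and -0.072 to 0.0023 for E2F7, and between the lines -0.0083 to 0.10 for E2F5.

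Without the length division the ratio of MDA-MB-468 over MDA-MB-231 kept its direction for the 10 members, and that of TFDP1 was 1.35 instead of 1.42. With 4 replicates per group, small changes such as that of TFDP1 rest on tight replicates, and line and medium cannot be told apart. The cause of each change between settings was not tested.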
